A study of Mus musculus with 6 samples.

Results

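Collagens, laminins and the glycoproteins that assemble with them were followed in cultured mouse astrocytes exposed to tumour necrosis factor (TNF), an inflammatory cytokine. Genes were taken by symbol: every collagen, laminin, fibulin, fibrillin, thrombospondin, nidogen and Efemp gene, every symbol starting with Lox, and Fn1, Eln, Sparc, Sparcl1, Spp1, Dcn, Lum, Bgn, Hspg2, Agrn and Postn. Of 19926 genes with a probe set of their own on the array, 81 met that rule: 44 collagen chains, 10 laminin chains, 4 nidogen and heparan sulfate proteoglycan genes, 7 elastic fibre genes, 4 lysyl oxidases, 4 thrombospondins, 4 of fibronectin, Sparc, Sparcl1 and Postn, and 3 small leucine-rich proteoglycans. The remaining gene, Loxhd1, carries the prefix but encodes a protein of inner ear hair cells and no lysyl oxidase. Spp1 and Fbn1 were not analysed here, and neither was Loxl2, whose probe set carries more than 1 symbol.

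The cells were primary astrocytes of the C57BL/6J strain, with no other genotype in any group. Control cultures (3 arrays) and cultures given TNF at 50 ng/mL (3 arrays) were both collected after 24 h, and each group carries the replicate numbers 1 to 3. Whether the replicates came from separate cultures or mice is not stated in the labels; p-values therefore reflect the spread among these 6 samples alone, which may be technical. RNA was hybridised to 1-colour whole-transcript arrays, and every value below is a log2 signal or, where so called, a log2 difference of TNF minus control.

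Extracellular matrix in the brain is concentrated in the basement membranes that lie under the pia and around blood vessels, where astrocyte endfeet meet them. Such a sheet is built from a laminin network and a collagen IV network, joined by nidogens and by the heparan sulfate proteoglycans perlecan and agrin. Each laminin is a trimer of 1 alpha, 1 beta and 1 gamma chain, and the alpha chain sets which receptors it binds. Fibril-forming collagens, elastic fibres and their cross-linking enzymes are better known from connective tissue, while thrombospondins and the Sparc family are secreted by astrocytes and act on synapses.

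A gene passed the threshold at a Benjamini-Hochberg adjusted p under 0.05 in limma over all 19926 genes. Of the 81 members 9 passed, which was 11.1% against 7.20% of all genes tested. Thbs2, Lamc1 and Loxl4 rose (3.70% of members against 3.87% of all genes) and Fbln5, Lama2, Sparcl1, Fn1, Col11a1 and Lamb2 fell (7.41% against 3.33%). The median log2 difference of the members was -0.03, beside a median of -0.00 over all genes. In a fit with the replicate number as a block 20 members passed, or 24.7% against 21.5% of all genes, and these included the 9. Of the 20, 8 were higher (9.88% of members against 9.73% of all genes) and 12 lower (14.8% against 11.8%). In bulk RNA a lower signal from fewer cells of a type and one from less RNA per cell cannot be told apart.

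These counts changed when arrays were left out, and so did those over all genes. Leaving out control 1 gave 0 higher and 3 lower members, leaving out TNF 2 gave 0 and 4, leaving out control 3 or TNF 1 gave 1 and 4, and leaving out control 2 or TNF 3 gave 3 and 4. With both arrays of a number left out, 0 passed without replicate 1, 2 were lower without replicate 2 and 4 were lower without replicate 3.

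**Figure D1:**
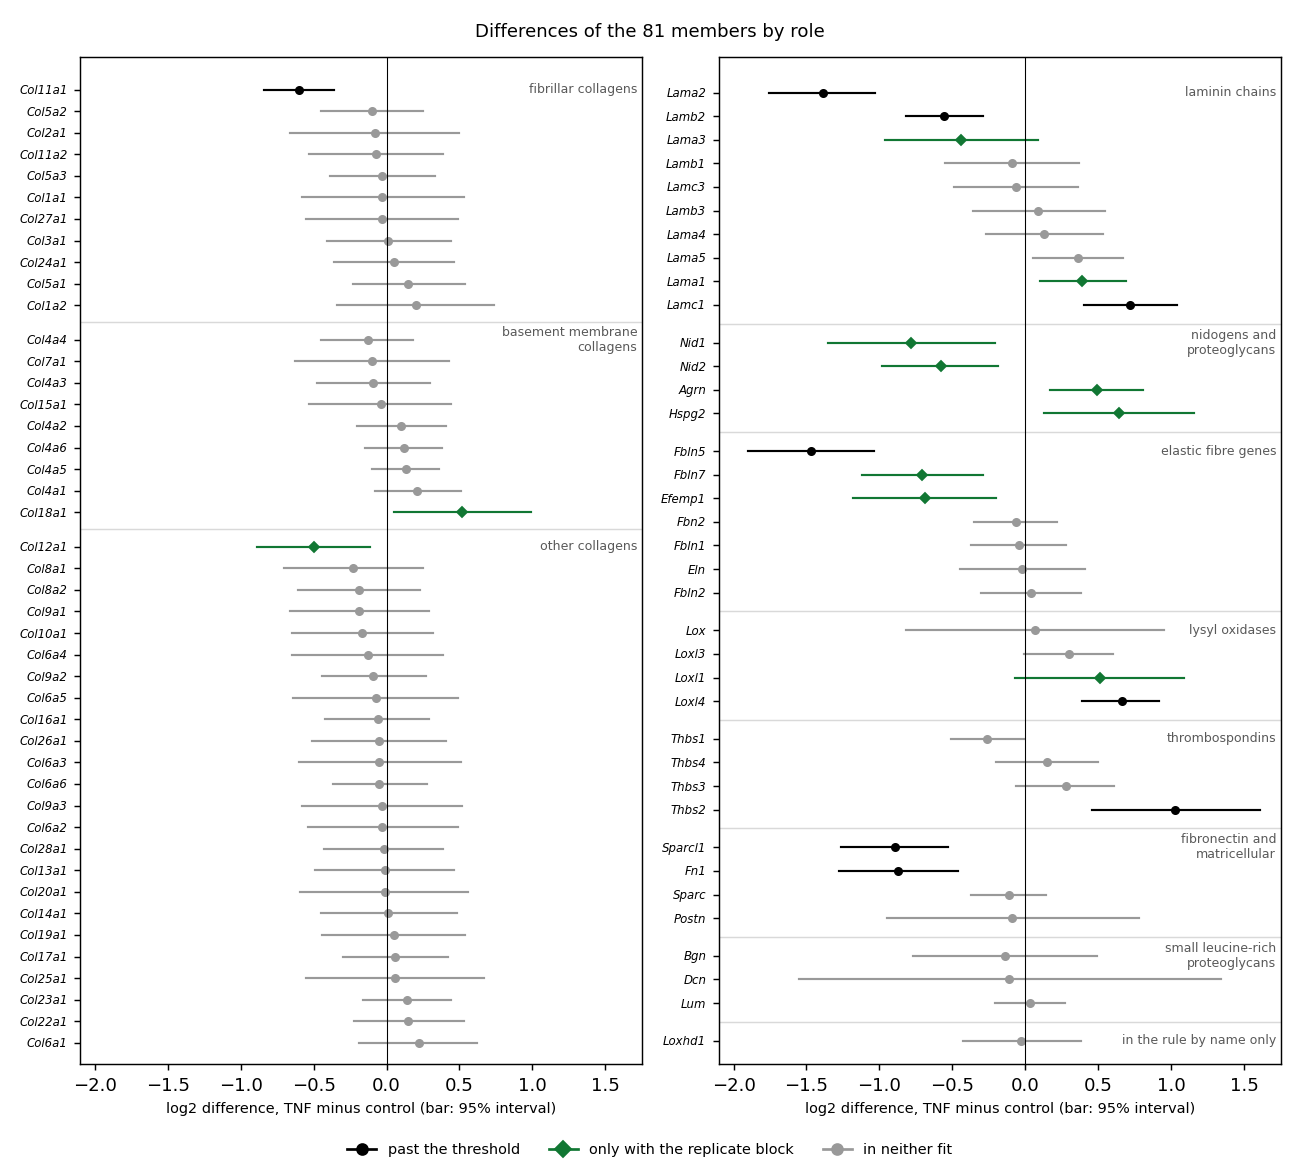
Log2 difference (TNF minus control, x axis) of each of the 81 members, by role, with bars for the 95% interval of the limma fit. Black points passed the threshold, green diamonds passed only with the replicate block, and grey points passed in neither fit. The collagens on the left lie close to 0 apart from Col11a1, Col12a1 and Col18a1, while on the right laminins and the nidogen and proteoglycan genes spread to both sides and Fbln5, Fbln7 and Efemp1 lie below 0.

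Replicate 3 stood apart at low signals. The lower quartile of its arrays was 6.27 and 6.33, against 6.01 to 6.09 in the other arrays. Of the 41 members below the median signal of all genes, 33 had their highest value in number 3 in both groups (80.5%, against 50.5% of all genes below that median). Array signals of dim genes include background, so values of these members may lie near it.

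Marker lists are given as counts in the limma fit without and with the replicate number as a block. Over all genes 3.87% were higher and 3.33% lower without it, and 9.73% and 11.8% with it. Astrocyte markers had list means from 10.53 to 10.85 in controls and from 10.13 to 10.42 with TNF. Of the 13, 0 were higher and 4 lower (Aldoc, Gja1, Glul and Fgfr3), and with the block 2 were higher and 8 lower. The 2 were Aqp4 and Slc1a2, each at 0.60 with no overlap between groups (adjusted p = 0.0718 and 0.0617, with the block 0.0069 and 0.0123), and Gfap, S100b, Sox9 and Ndrg2 were the further lower ones. Gjb6 was near 5.23 in controls. Fibroblast and meningeal markers had list means from 7.59 to 7.70 and from 7.44 to 7.74. Of the 15, 2 were higher (Prrx1 by 1.14 and Fap by 0.51) and 0 lower, and with the block 3 were lower as well, Thy1 at -0.92, Foxc1 at -0.58 and Osr1 at -0.57 (adjusted p = 3.80e-04, 0.0122 and 0.0235 with it). Mural markers ran from 8.29 to 8.51 and from 7.90 to 8.36 with 1 of 9 lower (Acta2), and with the block 3, Tagln at -1.10 and Pdgfrb at -0.38 included. Control means were 13.37 for Acta2, 12.63 for Tagln and 10.06 for Pdgfrb. The other mural markers had control means from 6.10 to 7.64 and differed by -0.20 to 0.21. Microglia markers ran from 6.46 to 7.42 and from 6.58 to 7.47, with a mean higher by 0.27, 0.12 and 0.06 within numbers 1, 2 and 3. Of the 10, 0 passed the limma threshold (1 higher and 0 lower at an unadjusted p under 0.05), and with the block 2 were higher, Itgam at 0.47 and Cd68 at 0.57 (adjusted p = 0.0137 and 0.0307). Endothelial markers ran from 6.94 to 7.21 and from 6.61 to 7.04. Of the 9, 2 were lower in both fits, Kdr at -0.91 from a control mean of 7.32 and Slco1a4 at -1.75 from 11.64. The others had control means from 5.71 to 6.58 and differed by -0.15 to 0.15. Of 7 oligodendrocyte and precursor markers Olig1 and Olig2 were lower in both fits, at -1.21 and -0.60 from control means of 11.29 and 10.39. The rest had control means from 6.20 to 6.89 and differed by -0.12 to 0.08. Of 8 neuron markers Map2 was lower (-1.22, control mean 10.84), and with the block Stmn2 too (-0.39, control mean 12.09). The remaining neuron markers had control means from 5.50 to 7.63 and differed by -0.17 to 0.45. The markers named here were picked after their values were seen. No marker was at 0, since these signals have a floor, and the part of other cell types in the results below was not tested.

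Laminin chains moved in opposite directions. Of 10 chains Lama2 and Lamb2 fell, Lamc1 rose and 7 did not pass. Lama2 encodes the alpha 2 chain of muscle and of the vascular basement membrane of brain, which astrocytes supply, and its loss causes congenital muscular dystrophy. Its log2 signal was 7.92, 8.23 and 7.78 in controls 1, 2 and 3, against 6.59, 6.78 and 6.39 with TNF in the same order. All TNF values lay below all control values, with group means of 7.98 ± 0.23 and 6.59 ± 0.20 (SD, n = 3 per group). The log2 difference was -1.39 (SE 0.16, limma adjusted p = 0.0021), which is 2.62-fold lower. The mean signal of Lama2 lay at percentile 44.9 of all genes, so its TNF values may lie near background. The call held in all 6 fits without 1 array, where the difference ranged from -1.49 to -1.27, and was lost without replicate 1 (adjusted p = 0.062).

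Lamb2, the beta 2 chain found at the pial surface, in the kidney filter and at the neuromuscular junction, was 11.09, 11.15 and 11.19 in controls and 10.76, 10.50 and 10.51 with TNF. The groups did not overlap, and the difference of -0.56 (SE 0.12, limma adjusted p = 0.0269) made it 1.47-fold lower. TNF 1 was the sample closest to the controls. Leaving out 1 array ended this call 5 times of 6, for control 1 (adjusted p = 0.0839), control 2 (0.0889), control 3 (0.0972), TNF 2 (0.112) and TNF 3 (0.0624).

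Lamc1, the gamma 1 chain shared by most laminin trimers, went the other way. Its signal was 10.23, 10.60 and 10.20 in controls 1 to 3 and 11.11, 11.11 and 10.98 with TNF. All TNF samples lay above all controls, and the spread was smaller with TNF (11.07 ± 0.07) than in controls (10.35 ± 0.22). The log2 difference was 0.72 (SE 0.14, limma adjusted p = 0.0194), a 1.65-fold rise. That call was lost without control 1 (adjusted p = 0.0851), control 3 (0.0724), TNF 1 (0.0664) or TNF 2 (0.0751).

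The other alpha chains lay on either side of 0. Lama1, the alpha 1 chain of early embryonic and pial basement membranes, was 6.51, 6.60 and 6.80 in controls and 6.94, 6.97 and 7.19 with TNF. These low signals did not overlap between groups, and the difference of 0.39 (SE 0.13, adjusted p = 0.126) passed as higher with the replicate block (limma adjusted p = 0.0104) and, without it, after quantile normalization of the genes tested (0.0324). Lama5, the alpha 5 chain of most adult basement membranes, was 10.19, 10.43 and 10.49 in controls and 10.81, 10.56 and 10.81 with TNF. Its difference of 0.36 (SE 0.13, adjusted p = 0.183) passed in neither fit, although the groups did not overlap. Lama3, the alpha 3 chain of epithelial laminin, differed by -0.44 from a low signal of 6.78 ± 0.42 (n = 3) and passed as lower with the block (limma adjusted p = 0.0209). Differences of the remaining chains Lama4, Lamb1, Lamb3 and Lamc3 ran from -0.09 to 0.13.

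**Figure D2:**
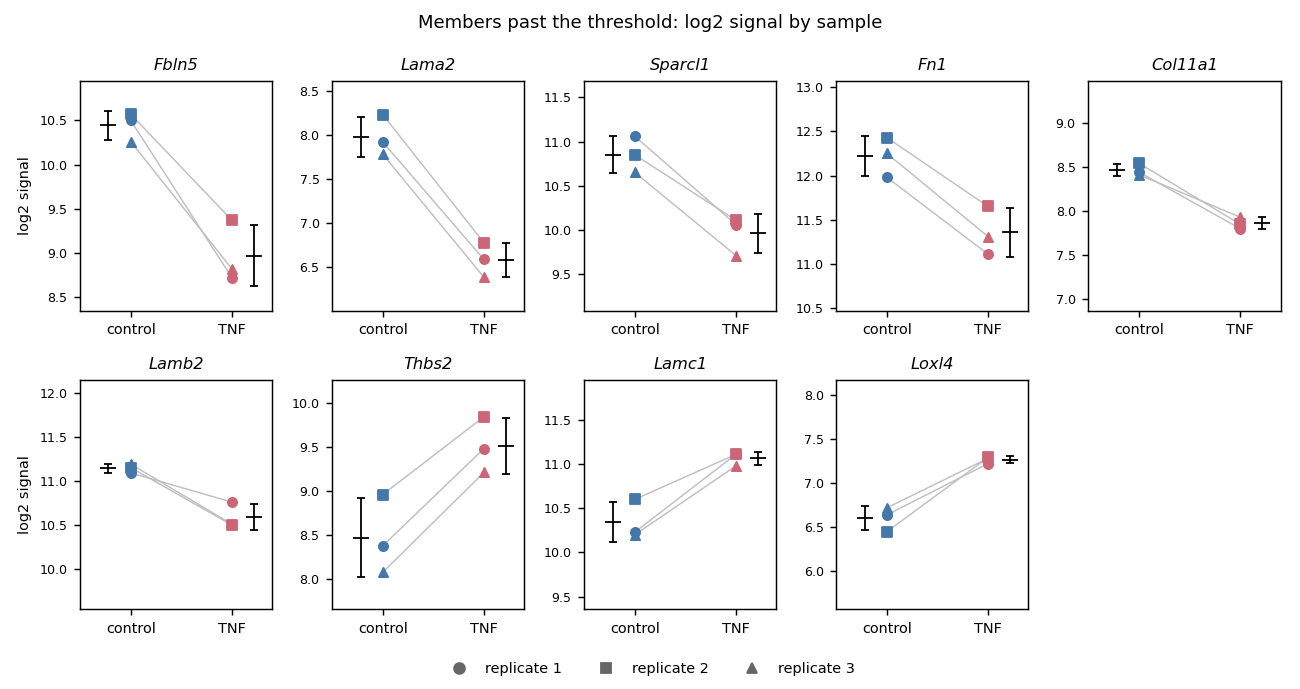
Log2 signal (y axis) of the 9 members past the threshold in control (blue) and TNF (red) samples; marker shapes give the replicate number, grey lines join samples of the same number, and black bars show the mean and SD of each group (n = 3). Every panel spans the same number of log2 units. Groups do not overlap in any panel; Lama2 falls from 7.98 to 6.59 and Thbs2 rises from 8.47 to 9.51.

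The genes that join laminin to the collagen IV network lay on either side of 0, 2 nidogens below and 2 heparan sulfate proteoglycans above. None of the 4 passed without the block in limma (2 higher and 2 lower at an unadjusted p under 0.05). With it both nidogens passed as lower and both proteoglycans as higher, where 11.8% and 9.73% of all genes did so. A pattern by kind was not tested. Nid1, the first described nidogen, was 8.02, 8.85 and 8.19 in controls and 7.23, 7.85 and 7.64 with TNF, a difference of -0.78 (SE 0.25, adjusted p = 0.119; with the replicate block 0.00186). Replicate 2 was the highest of both groups, and each TNF sample was below the control of its number, least so in number 3 (-0.55). Nid2 was 10.83, 10.47 and 10.83 in controls and 10.31, 9.83 and 10.24 with TNF. Here replicate 2 was the lowest of both groups, and the difference was -0.58 (SE 0.17, adjusted p = 0.0921; with the block 0.00202, and with array weights and no block 0.0351).

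Hspg2, which encodes perlecan, was 9.12, 9.96 and 9.84 in controls and 10.20, 10.19 and 10.47 with TNF. All TNF samples lay above the controls, by 0.23 to 1.07 within a number, and the difference was 0.64 (SE 0.22, adjusted p = 0.151; with the block 0.0204). Agrn, which encodes agrin, the organiser of acetylcholine receptors at the neuromuscular junction and a component of astrocyte endfoot membranes, was 10.02, 10.45 and 10.25 in controls and 10.62, 10.78 and 10.80 with TNF. Its difference of 0.49 (SE 0.14, adjusted p = 0.0802) passed with the block (limma adjusted p = 0.00714), and all 3 TNF samples were above all 3 controls. Agrn also passed on all 6 arrays without the block when genes below the median signal were left out (0.0414), with trend and robust variance (0.0438) and with array weights (0.0413).

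Basement membrane collagens stayed close to their control signals. None of the 9 passed without the block in limma (1 higher and 0 lower at an unadjusted p under 0.05), and 8 differed by less than 0.25. Col4a1, which with Col4a2 forms the common collagen IV trimer, was 8.06, 8.32 and 8.31 in controls and 8.28, 8.49 and 8.56 with TNF, so that the groups overlapped. The difference was 0.21 (SE 0.13, adjusted p = 0.472, 95% interval -0.08 to 0.51), and that of Col4a2 was 0.10 (95% interval -0.20 to 0.41). Col18a1, the collagen whose end fragment is endostatin, was 7.80, 8.19 and 8.20 in controls and 8.17, 8.79 and 8.79 with TNF. Its difference was 0.52 (SE 0.20, adjusted p = 0.209), it was higher within all 3 numbers, and it passed with the replicate block (limma adjusted p = 0.00523).

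**Figure D3:**
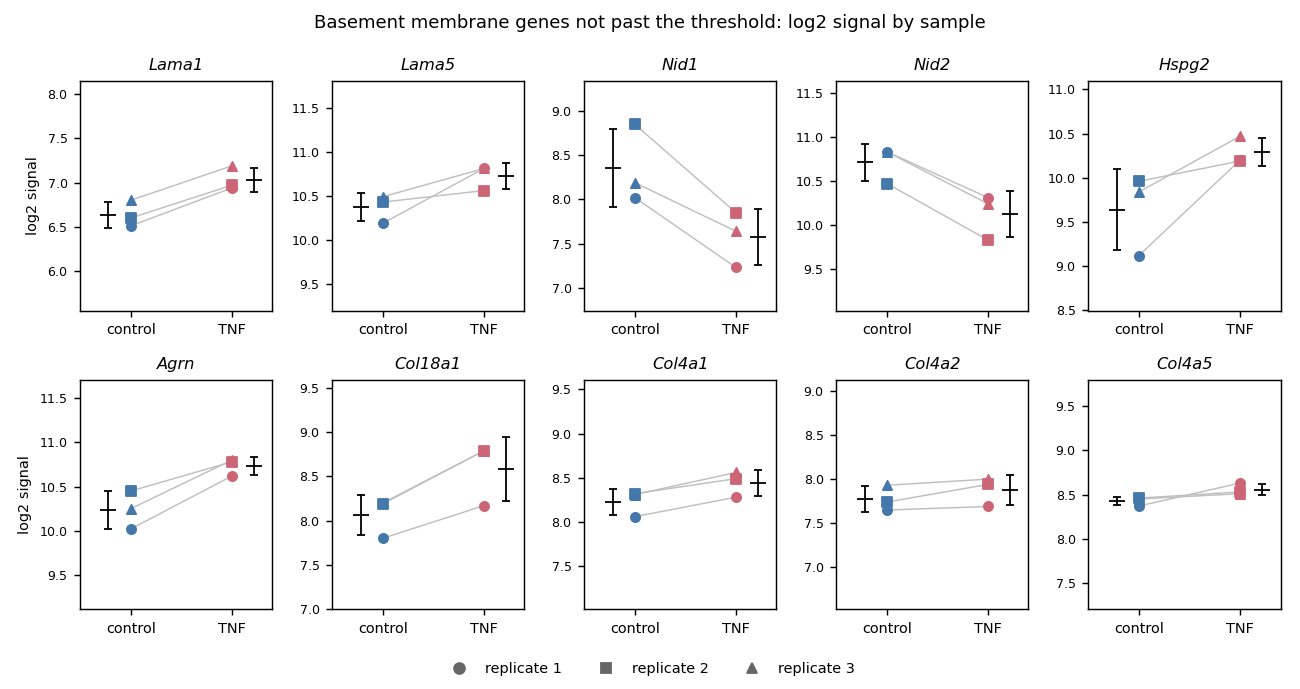
Log2 signal (y axis) of 10 basement membrane genes that did not pass without the replicate block, in control (blue) and TNF (red) samples; shapes give the replicate number, grey lines join samples of the same number, and black bars show mean and SD (n = 3). Every panel spans the same number of log2 units. Nid1 and Nid2 are lower with TNF within each number, Hspg2 and Agrn are higher, and Col4a1 and Col4a2 overlap between groups.

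Among the 11 fibrillar collagens Col11a1 fell and 10 did not pass, each with a difference under 0.25 in size. Col11a1 is a minor fibrillar chain that sets fibril diameter in cartilage. It was 8.44, 8.54 and 8.41 in controls and 7.80, 7.85 and 7.93 with TNF, with an SD of 0.07 in both groups. The groups were well apart, at a difference of -0.60 (SE 0.10, limma adjusted p = 0.0136) or 1.52-fold lower. That call was lost without control 1 (adjusted p = 0.0553), control 2 (0.0563), TNF 1 (0.0516) or TNF 2 (0.0596). The chains of type I and III collagen, the main fibrillar collagens of connective tissue, overlapped between groups. Their differences were -0.03 for Col1a1 (95% interval -0.58 to 0.53), 0.20 for Col1a2 (-0.34 to 0.74) and 0.01 for Col3a1 (-0.41 to 0.44).

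The 24 other collagens, which form beaded filaments, networks, fibril-associated and membrane-anchored molecules, gave no call in limma without the block (0 higher and 1 lower at an unadjusted p under 0.05). In 22 of them number 3 was the highest sample of both groups, and 23 differed by less than 0.25. The exception in size was Col12a1, a fibril-associated collagen, at 9.38, 9.75 and 9.34 in controls and 9.07, 9.18 and 8.71 with TNF. Its groups did not overlap, and the difference of -0.50 (SE 0.17, adjusted p = 0.143) passed as lower with the replicate block (limma adjusted p = 0.0081). Col8a1, a network-forming collagen of vessel walls, was 11.46, 11.89 and 11.42 in controls and 11.28, 11.74 and 11.07 with TNF (difference -0.23, SE 0.20, adjusted p = 0.712). It was lower within every number, while the groups overlapped. The 6 collagen VI chains differed by -0.13 to 0.22, and number 3 was the highest of both groups in all 6.

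Elastic fibre genes held the largest decrease among the members. Fbln5, the fibulin that guides elastin and lysyl oxidases onto elastic fibres, was 10.50, 10.57 and 10.26 in controls and 8.72, 9.37 and 8.82 with TNF. The highest TNF sample, number 2, was still well below the lowest control, number 3. The group means were 10.44 ± 0.16 and 8.97 ± 0.35 (SD, n = 3 per group), a difference of -1.47 (SE 0.19, limma adjusted p = 0.00346) or 2.78-fold lower. All 6 fits without 1 array kept the call, with differences from -1.67 to -1.35, and the fit without replicate 1 lost it (adjusted p = 0.0787).

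A pair of its relatives passed only with the block. Fbln7, another fibulin, was 9.56, 9.10 and 9.71 in controls and 8.76, 8.57 and 8.92 with TNF. The groups did not overlap, at a difference of -0.71 (SE 0.18, adjusted p = 0.0583; with the replicate block 0.00158). Without control 2 it passed without the block too (adjusted p = 0.0249), as it did without genes below the median signal (0.0347) or the lower quartile (0.0493), with trend and robust variance (0.0407) and with array weights (0.0186). Efemp1, also called fibulin-3, was 9.81, 10.08 and 10.45 in controls and 9.05, 9.57 and 9.65 with TNF (difference -0.69, SE 0.21, adjusted p = 0.11; with the block 0.00176). Each TNF sample lay below every control. Eln, elastin itself, differed by -0.02, and Fbn2, Fbln1 and Fbln2 by -0.06 to 0.04; these 4 passed in neither fit.

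Of the 4 lysyl oxidases, the copper enzymes that cross-link collagen and elastin, Loxl4 rose and none fell. Loxl4 was 6.64, 6.45 and 6.72 in controls and 7.22, 7.29 and 7.28 with TNF. The TNF values were nearly equal and all above the controls, at a difference of 0.66 (SE 0.11, limma adjusted p = 0.0132) or 1.58-fold. The mean signal of Loxl4 lay at percentile 39.4 of all genes, so these values may lie near background. A second Loxl4 probe set, of lower mean signal, went from 5.52 to 6.70, a difference of 1.17. The call was lost without control 1 (adjusted p = 0.0523) or TNF 2 (0.0574). Loxl1, which acts on elastin, was 8.84, 9.82 and 9.17 in controls and 9.64, 10.07 and 9.67 with TNF. Groups overlapped through control 2, each TNF sample was above the control of its number, and the difference of 0.51 (SE 0.25, adjusted p = 0.34) passed with the replicate block (limma adjusted p = 0.0176). Loxl3 differed by 0.30 and Lox by 0.07, and neither passed.

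Thbs2 rose among the 4 thrombospondins. Thrombospondins 1 and 2 are trimers that immature astrocytes secrete and that promote the formation of synapses. Thbs2 was 8.38, 8.96 and 8.08 in controls and 9.48, 9.84 and 9.21 with TNF; number 2 was the highest and number 3 the lowest in both groups. Group means were 8.47 ± 0.45 and 9.51 ± 0.32 (SD, n = 3 per group), a difference of 1.03 (SE 0.25, limma adjusted p = 0.0477; with the replicate block 2.62e-04) or 2.05-fold. Without the block the call stood close to the threshold and was lost without control 1 (adjusted p = 0.159), control 3 (0.129), TNF 1 (0.114) or TNF 2 (0.145). Thbs1 was 12.68, 12.57 and 12.55 in controls and 12.22, 12.43 and 12.37 with TNF. Its difference of -0.26 (SE 0.11, adjusted p = 0.253) passed in neither fit, although each TNF value was below each control. Thbs3 differed by 0.28 and Thbs4 by 0.15.

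Fn1 and Sparcl1 fell, and Sparc and Postn did not pass. Fn1, fibronectin, which links cells to the matrix through integrins, was 11.98, 12.43 and 12.25 in controls and 11.11, 11.65 and 11.31 with TNF. Number 2 was the highest and number 1 the lowest in both groups, and the differences within a number ran from -0.95 to -0.78. The difference was -0.87 (SE 0.18, limma adjusted p = 0.0248), 1.82-fold lower. It lost the call without control 2 (adjusted p = 0.0834), control 3 (0.0803), TNF 1 (0.076) or TNF 3 (0.061).

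Sparcl1, or hevin, which astrocytes secrete to promote synapse formation, was 11.06, 10.85 and 10.65 in controls and 10.06, 10.11 and 9.71 with TNF. All TNF samples lay below the controls, at a difference of -0.89 (SE 0.16, limma adjusted p = 0.0145) or 1.86-fold lower. Its call was lost without control 1 (adjusted p = 0.0608). Sparc, a relative that counteracts hevin at synapses, was 13.71, 13.74 and 13.81 in controls and 13.51, 13.68 and 13.72 with TNF, and these values overlapped. The difference was -0.11 (SE 0.11, adjusted p = 0.732, 95% interval -0.37 to 0.14). Postn, periostin, differed by -0.09.

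None of the 3 small leucine-rich proteoglycans among the members passed in limma, and none had an unadjusted p under 0.05. Bgn, biglycan, was 10.39, 10.33 and 10.97 in controls and 9.97, 10.35 and 10.95 with TNF, so that the spread within groups exceeded the difference of -0.14 (SE 0.27, adjusted p = 0.915). Dcn, decorin, a fibroblast product, differed more between replicate numbers than between groups, with 5.80, 7.00 and 8.29 in controls against 6.20, 6.77 and 7.80 with TNF. Lum, lumican, lay between 4.01 and 4.17 on all arrays, at percentile 3.1 of the mean signals of all genes.

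Within replicate numbers the 20 members that passed with the block kept 1 direction in all 3 numbers. They were picked by a fit to these same differences, so this adds no support. Among all 81 members 38 kept 1 direction in all 3 numbers, or 46.9% against 52.6% of all genes tested. The groups did not overlap in 22 members, which was 27.2% against 24.0% of all genes. They were 10 higher members (12.3%, as over all genes, 12.3%) and 12 lower ones (14.8% against 11.7%). Of those 22, Col4a5, Lama5, Loxl3, Thbs1 and Thbs3 passed in neither fit. The 61 members that passed in neither fit differed by -0.26 to 0.36, and 57 of them by less than 0.25.

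**Figure D4:**
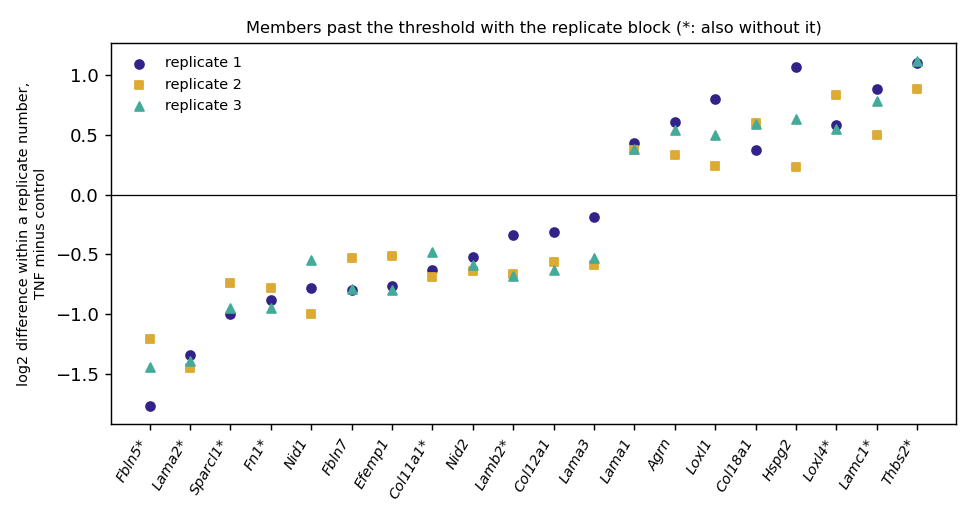
Log2 difference (TNF minus control, y axis) within each replicate number for the 20 members that passed with the replicate block, ordered by their mean difference; an asterisk marks the 9 that also passed without it. All points of a gene lie on 1 side of 0, which selection by the block fit favours. Those of Lama2 lie close together, while those of Hspg2 run from 0.23 to 1.07.

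Promoter sequences are shown for Thbs2 and Loxl4, members that rose, and for Lama2 and Fbln5, the members with the largest decreases. They are RefSeq windows (GRCm38.p6) from 250 bases before to 50 after an annotated start, written 5′ to 3′ on the gene's strand, and such windows were found for 55 of the 81 members (63 windows) and 6 of the 9 called ones. Fbln5 has a second window, chr12:101818435-101818734, which holds no GGGCGG; the window with matches is the one shown. Capitals mark the match to the kappaB motif, the site bound by NF-kB, in the first pair and GGGCGG, the GC box, on either strand in the second pair. Matches to the other motif are left in small letters. The Loxl4 window also holds 3 matches to GGGCGG and the Thbs2 window none, and the Lama2 and Fbln5 windows hold no kappaB match.
Thbs2, minus strand of chr17:14694213-14694512: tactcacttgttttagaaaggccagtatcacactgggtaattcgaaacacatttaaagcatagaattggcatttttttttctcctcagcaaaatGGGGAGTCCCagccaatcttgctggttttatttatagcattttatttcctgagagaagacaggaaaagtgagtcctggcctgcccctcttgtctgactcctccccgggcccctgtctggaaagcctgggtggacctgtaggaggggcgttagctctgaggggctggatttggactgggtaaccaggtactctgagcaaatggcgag
Loxl4, minus strand of chr19:42612757-42613056: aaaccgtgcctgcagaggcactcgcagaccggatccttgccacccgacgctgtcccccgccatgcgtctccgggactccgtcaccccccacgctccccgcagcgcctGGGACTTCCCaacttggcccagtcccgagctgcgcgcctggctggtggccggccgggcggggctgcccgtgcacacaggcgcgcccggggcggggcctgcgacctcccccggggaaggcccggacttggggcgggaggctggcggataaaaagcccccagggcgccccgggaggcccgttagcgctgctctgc
Lama2, minus strand of chr10:27616893-27617192: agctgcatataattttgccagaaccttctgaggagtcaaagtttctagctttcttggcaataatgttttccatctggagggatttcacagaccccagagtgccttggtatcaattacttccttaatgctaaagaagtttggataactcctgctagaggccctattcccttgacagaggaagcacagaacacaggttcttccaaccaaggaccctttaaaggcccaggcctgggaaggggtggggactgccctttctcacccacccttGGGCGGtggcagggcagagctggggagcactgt
Fbln5, minus strand of chr12:101819070-101819369: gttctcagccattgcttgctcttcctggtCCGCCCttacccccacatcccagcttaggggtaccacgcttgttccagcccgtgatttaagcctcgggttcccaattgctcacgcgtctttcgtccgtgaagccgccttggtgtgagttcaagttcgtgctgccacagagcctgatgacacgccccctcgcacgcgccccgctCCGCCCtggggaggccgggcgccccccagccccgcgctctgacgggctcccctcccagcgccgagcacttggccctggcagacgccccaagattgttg

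The kappaB motif, searched on both strands, was present in 4.51% of all 32851 promoter windows and in 8 of the 63 windows of members (12.7%). These 8 windows belong to 7 genes: Col9a1, Lamb3, Col27a1, Col9a2, Col6a4, Thbs2 and Loxl4. Of the 7, Thbs2 and Loxl4 passed the threshold, where 11.1% of members and 7.20% of all genes did. The share passing among all genes with a match was not computed. The match lies 156 bases before the start in Thbs2 and 143 before it in Loxl4. Lamc1, the other member that rose, had no window and was not searched, and the same holds for Fn1 and Sparcl1, which fell. GGGCGG was present in 60.3% of the member windows and in 35.7% of all windows, and TATAAA, also searched on both strands, in 11.1% and 13.6%. In windows of called members that fell, GGGCGG was present in 3 of 5 (60%), near the share of all member windows. None of the 8 kappaB matches overlapped GGGCGG. A match is a run of letters and not a measured binding site, and Thbs2 and Loxl4 were chosen for display after their values were seen.

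Genes that make, bind or accompany these proteins were counted in the same fit. For all lists below, the shares over all genes were 3.87% higher and 3.33% lower, and with the block 9.73% and 11.8%. Of 28 collagen synthesis genes 1 rose and 2 fell, with a median difference of -0.01; 6 and 5 passed with the replicate block. P3h2, a prolyl hydroxylase that acts on basement membrane collagen, fell by 1.35 on the log2 scale (SE 0.13, limma adjusted p = 7.90e-04), and P4ha3, a subunit of prolyl 4-hydroxylase, fell by 0.72. Plod3, a lysyl hydroxylase that also adds sugars to collagen, rose by 0.66. P3h2 kept its call in all 6 fits without 1 array. Plod3 lost it without control 1 (adjusted p = 0.0646), control 3 (0.0568) or TNF 2 (0.0634), and P4ha3 without control 1 (0.126), control 3 (0.112), TNF 1 (0.0582), TNF 2 (0.115) or TNF 3 (0.0891).

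Of 30 matrix receptor genes 3 rose and 3 fell, with a median of -0.06; 5 and 6 passed with the block. Itga2, the integrin subunit that binds collagen, rose from 7.43 ± 0.11 to 9.23 ± 0.08 (n = 3 per group, 3.48-fold, limma adjusted p = 1.19e-04). Cd47, a receptor of thrombospondins, rose by 1.23, and Adgrg1, an adhesion receptor that binds type III collagen in the developing brain, fell by 1.12. Itgb5, an integrin subunit for vitronectin, fell by 0.83. The other calls were Sdc2 at -0.65 and Sdc4 at 0.55, both cell-surface heparan sulfate proteoglycans and both named after their values were seen. Sdc4 lost its call in each of the 6 fits without 1 array (adjusted p = 0.107, 0.128 and 0.075 without controls 1, 2 and 3, and 0.0865, 0.102 and 0.0891 without TNF 1, 2 and 3), and the other 5 kept theirs.

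Among 38 other matrix genes 7 fell and none rose (3 higher and 12 lower at an unadjusted p under 0.05), with a median of -0.16; with the block 11 were lower and 5 higher. Frem2 and Frem1, proteins that anchor epithelia to basement membranes, differed by -1.35 and -1.14. Omd and Ogn, the small leucine-rich proteoglycans osteomodulin and osteoglycin, by -1.81 and -1.55. Npnt, the basement membrane integrin ligand nephronectin, fell by 1.50, and Fmod and Prelp, further leucine-rich proteoglycans, differed by -0.60 and -0.72; these 3 were chosen after their values were seen. The number that fell was 4 without control 1, 5 without control 3, TNF 1 or TNF 3, and 6 without control 2 or TNF 2. Npnt lost its call without control 1 (adjusted p = 0.0519), Fmod without control 1 (0.0712), control 2 (0.0937), control 3 (0.0714), TNF 1 (0.088) or TNF 3 (0.0553), and Prelp without control 1 (0.16), control 3 (0.138), TNF 1 (0.0628), TNF 2 (0.12) or TNF 3 (0.0612).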

How the data were processed

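Affymetrix Mouse Gene 1.0 ST arrays, 1 per sample, were used for total RNA of 6 astrocyte samples. The deposited table holds log2 signals for 35544 probe sets; the authors made them with RMA, per the submitters' processing notes; limma is named there too, with no version for either. The log base was read from the values (2.04 to 14.37, array medians 7.14 to 7.18). RMA corrects background, equalises the quantiles of the arrays and summarises probes, which compresses large folds and keeps dim genes above 0.

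Probe sets with exactly 1 symbol in the platform annotation (21777; several symbols in 1621, none in 12146) were kept, and of several for a gene the one of highest mean signal, which left 19926 genes. Levels of different probe sets are not directly comparable. Ranks by mean signal served to choose probe sets and genes to print, to filter, and to mark dim genes. All genes were fitted together with limma 3.58.1 (R 4.3.3; lmFit, eBayes; TNF minus control, two-sided, no block), with 4 residual and 3.7 prior degrees of freedom and a median SE of 0.18 among members. The number of arrays limits the precision. The code of the fit without the block was run on simulated data with known changes and independent noise in each sample. That run leaves out the shared deviations of replicate numbers, so it checks the code and not the error rate of the calls. Tables and plots used Python 3.11.15 with pandas 2.3.3, numpy 2.4.6, scipy 1.17.1 and matplotlib 3.10.9.

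Members, lists and tests were chosen with earlier results of these data known. Members past the threshold, the 10 of highest mean signal and the 10 of largest absolute difference are given with all 6 values. Outside that rule, and with their values known, the same was done for Lama1, Hspg2, Col18a1, Col12a1 and Loxl1, which passed only with the block. Col4a1 and Dcn, which passed in neither fit, were added in the same way. Other members are given by range or difference, and of each list of accompanying genes up to 4 of smallest p, besides those marked as chosen later. The lists cover collagen synthesis, matrix receptors, other matrix genes, and markers of astrocytes, fibroblasts and meninges, mural cells, endothelium, microglia, oligodendrocytes and neurons.

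Control and TNF samples of the same replicate number deviated together from their group means (r = 0.55, 0.65 and 0.75 over genes). The block fit takes the numbers to pair the samples, while the main fit, with its SEs, intervals and fits without 1 array, ignores this. The pairing rests on the values, since the labels do not state what a number shares. With the replicate block 2 residual degrees of freedom are left. Alternatives were the block, arrays or pairs left out, array weights, trend and robust variance, centring, quantile normalization, filters on signal, another probe set and other thresholds.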

Additional observations from a re-analysis of the deposited data

How the results depend on the processing

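The replicate block gave 8 higher and 12 lower members, beside 1938 and 2351 over all genes; it changed no call of the report other than those given there. At an adjusted p under 0.01, 0 members were higher and 2 lower (386 and 195 of all genes), and with an absolute log2 difference of at least 1, 1 and 2 (365 and 200). With an array or a replicate number left out, members higher ranged from 0 to 3 and members lower from 0 to 4, all genes higher from 273 to 669 and all genes lower from 106 to 455, and the median difference of the members from -0.19 to 0.09 around -0.03; these fits have fewer samples. The 25 named members were followed under 17 alternatives, except that the filter at the median signal removed Lama1, Lama2, Lama3 and Loxl4 from the test. Of the values on all 6 arrays none lost a call or changed sign. Bgn, which did not pass, ranged from -0.41 to 0.09 with an array or number left out and changed sign without control 3 (0.06) and without TNF 1 (0.09). Signal over background limits the dim members, most of them collagens, since no detection calls were used here.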
